A study of Mus musculus with 250 samples.

Results

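Blood cells, that is, whole blood from which the plasma had been taken off, were profiled on 50 arrays, 25 of mice bearing a mammary tumor and 25 of their matched controls. These are 50 of the 250 arrays in the series, chosen by tissue and group label and not by any measured value. The other arrays hold breast, liver, spleen and thymus of the same kind of animals. The tumor-bearing mice were female FVB mice carrying both MMTV-rtTA and TetO-NeuNT, a pair of transgenes in which doxycycline switches on activated Neu, the rat form of the growth factor receptor Her2. The controls were female FVB littermates that carried TetO-NeuNT alone. In both groups the drinking water held 2 mg/mL doxycycline and 5% sucrose once the mice were 8 weeks old. A pair was killed with CO2 when the tumor of its bitransgenic mouse measured 1 cm. The MMTV promoter acts mainly in mammary epithelium, so the blood cells themselves were not the intended site of the transgene. The controls lack rtTA as well as a tumor, and the effects of the tumor and of rtTA with doxycycline cannot be told apart. Each tumor-bearing array was paired with the array of the mouse that the labels name as its age- and cage-matched partner.

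Mouse blood without plasma holds red cells, platelets and white cells, and the white cells of a healthy mouse are mostly lymphocytes. Neutrophils are made in the marrow from dividing precursors that fill primary (azurophil) granules first, then secondary and tertiary granules, and are released when they no longer divide. Granulocyte colony-stimulating factor, interleukin 6 and interleukin 1 drive that production in inflammation and in many tumor models. Because RNA was taken from all cells together, fewer cells of a type and less RNA per cell cannot be told apart in any result here. Neither can be told apart from a larger share of RNA from other cells.

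All values are log2 of the deposited probe set intensity, with values under 11.3 set to 11.3 (3.50 on the log2 scale), and 1 probe set stands for each of 18193 genes. Levels can be compared between groups for a gene, not between genes. A change is the mean of tumor-bearing minus control over the pairs, given with its standard error (SE), and its adjusted p is from limma with the pair as a block and Benjamini-Hochberg adjustment over the 18193 genes. A gene is said to have risen or fallen where the adjusted p was under 0.05.

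The label of the tissue was checked first. Alas2, the erythroid enzyme that starts heme synthesis, lay between 12.45 and 14.63 in the controls and between 14.43 and 14.64 in the tumor-bearing mice, and the platelet chemokine gene Pf4 had a median of 13.44 in controls and 13.40 in tumor-bearing mice. Both genes were thus far above the lower limit on all arrays. The T cell gene Cd3e, the B cell gene Cd79a, the natural killer (NK) cell gene Ncr1, the monocyte gene Csf1r and the neutrophil gene S100a8 had control medians of 9.12, 8.17, 8.71, 10.88 and 10.80. The probe set of Hba-a1 used here was near the lower limit, with a control median of 3.95. Erbb2, the mouse gene whose rat counterpart is the transgene, lay between 3.92 and 5.19 in controls and between 3.50 and 5.14 in tumor-bearing mice. Its change was 0.03 (SE 0.09, adjusted p = 0.877, limma), and the groups overlapped. The probe set was designed for the mouse gene, and how well it reads the rat transgene was not tested.

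The array medians ranged from 19.7 to 31.9 intensity units. Of the 50 arrays, 5 had a correlation under 0.95 with the median blood array, namely the controls of pairs 7, 9, 13 and 16 (0.911, 0.711, 0.909 and 0.942) and the tumor-bearing array of pair 7 (0.947). The nearest arrays above that limit, the tumor-bearing array of pair 13 and the control of pair 14, were both at 0.952. The control of pair 9 had the lowest S100a8 (5.90, the next control being at 9.59) and the lowest Rplp0, a ribosomal protein gene (9.92, the next being at 13.35). The control of pair 13 had the lowest Pf4 (10.18). The control of pair 16 held mammary epithelial RNA: its summed intensity over the 15 epithelial genes listed was 14.34 on the log2 scale, against 9.29 for the next highest control and 8.12 to 8.91 for the tumor-bearing arrays. Results are therefore given for all 25 pairs and for the 21 pairs without these 4. A pair of RNA quality measures, the ratios of 3′ to 5′ probe sets for Gapdh and actin, were compared by sign flips within pairs. The log2 ratio of Gapdh differed by -0.01 (SE 0.08, n = 25 pairs, two-sided permutation p = 0.915, adjusted 0.915 over both), and that of actin by -0.08 (SE 0.04, n = 25 pairs, two-sided permutation p = 0.0483, adjusted 0.0966, lower in 14 of 25 pairs). On all plates the tumor-bearing arrays stood in odd columns and the controls in even ones, so plate column and group cannot be told apart.

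In blood cells of tumor-bearing mice, levels of most secondary and tertiary granule genes and neutrophil surface genes were far higher. Levels of many B cell, NK cell and T cell genes were lower. Across all genes, 1575 rose (8.66% of those tested) and 776 fell (4.27%). The counts called in each list are to be read beside these shares. The rises were larger. Of the called genes, 373 rose and 18 fell by more than 2-fold, and 85 rose and 1 fell by more than 4-fold. In 281 of the called genes all 25 tumor-bearing mice were higher than their partners, and in 2 all 25 were lower. Without the 4 pairs, 1858 genes rose (10.2%) and 2174 fell (11.9%). The genes called in both fits were 1515 of the risen genes (96.2% of the 1575) and 729 of the fallen ones (93.9% of the 776), and 0 genes turned direction. The 21 pairs are part of the 25, so this overlap is no independent check. With quantile normalization over the blood arrays, 1485 genes rose and 1170 fell. The median change over all genes was -0.03, and -0.01 in the 21 pairs. An unadjusted p under 0.05 was reached by 4280 of the 18193 genes. Counts of list members at that limit are to be read beside this share.

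**Figure D1:**
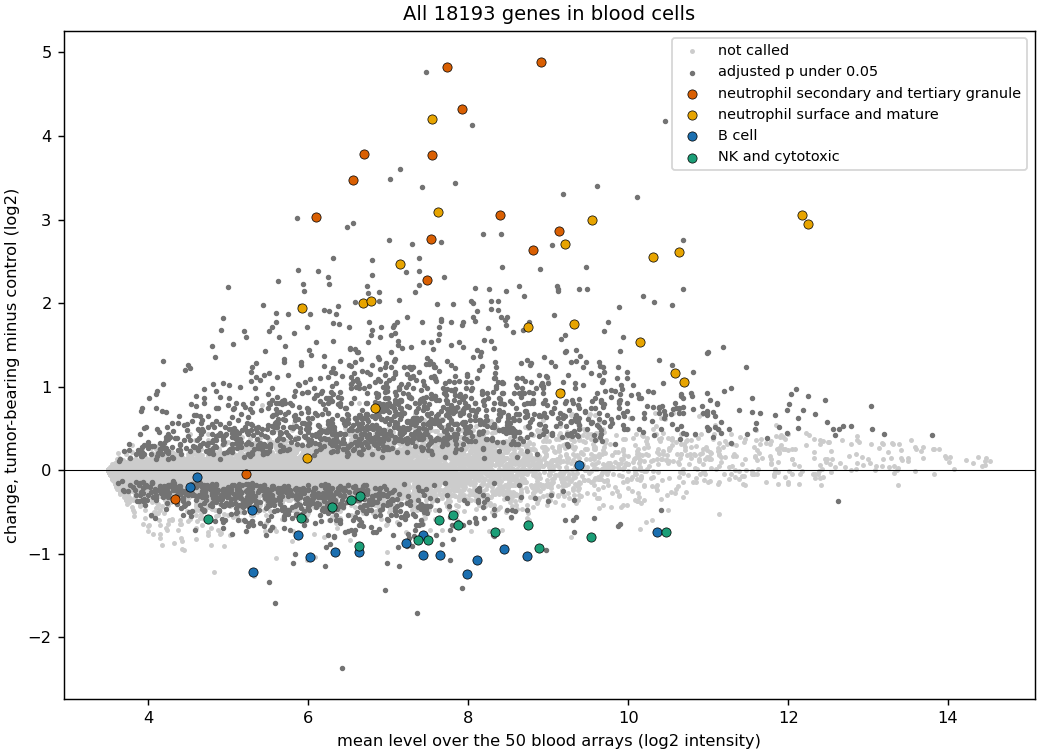
Change of each gene in blood cells (tumor-bearing minus control, log2, mean of 25 pairs) against its mean level over the 50 blood arrays (log2 intensity). Dark grey points have an adjusted p under 0.05 and coloured points are members of 4 lists. The largest change is that of the granule gene Ngp (4.89), and the medians of the B cell and NK lists are -0.96 and -0.66.

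In 67 genes (0.368%) every tumor-bearing array was above every control array, and in 0 genes (0.0%) every tumor-bearing array was below. In the 21 pairs these counts were 98 (0.539%) and 0 (0.0%).

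The 5′ flanks of 3 granule genes that rose and of a pair of interferon response genes are shown because the members of these lists are known to be read by shared factors, the C/EBP proteins in neutrophil precursors and the STAT and IRF proteins after interferon. Each is the 250 bases before the transcript start in RefSeq on GRCm38.p6, written 5′ to 3′ on the gene's strand. Capitals mark, in the granule genes, the C/EBP-like motif TTGCNNAA or its other strand TTNNGCAA. The flanks are those of Ngp, neutrophilic granule protein (chr9:110419558-110419807, plus strand), Ltf, lactotransferrin (chr9:111019042-111019291, plus strand), and Lcn2, lipocalin 2 (chr2:32387740-32387989, minus strand).
Ngp: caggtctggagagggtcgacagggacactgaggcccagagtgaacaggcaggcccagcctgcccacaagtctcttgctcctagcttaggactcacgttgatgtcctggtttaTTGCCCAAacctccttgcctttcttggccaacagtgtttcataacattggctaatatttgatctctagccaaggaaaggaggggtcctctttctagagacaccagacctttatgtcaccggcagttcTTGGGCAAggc
Ltf: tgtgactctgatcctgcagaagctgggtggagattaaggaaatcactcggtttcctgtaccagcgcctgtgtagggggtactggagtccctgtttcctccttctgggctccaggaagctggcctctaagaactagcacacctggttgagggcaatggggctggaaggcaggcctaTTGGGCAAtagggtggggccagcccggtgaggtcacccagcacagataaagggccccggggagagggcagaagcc
Lcn2: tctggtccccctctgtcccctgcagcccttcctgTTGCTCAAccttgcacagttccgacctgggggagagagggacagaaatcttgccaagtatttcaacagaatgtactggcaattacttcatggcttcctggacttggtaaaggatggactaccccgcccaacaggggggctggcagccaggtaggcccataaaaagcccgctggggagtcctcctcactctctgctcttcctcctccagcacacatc
In the interferon genes, capitals mark the interferon response motif GAAANNGAAA or its other strand TTTCNNTTTC. The flanks are those of Oas3, a sensor of double-stranded RNA (chr5:120777660-120777909, minus strand), and Ifit3, an antiviral protein (chr19:34583279-34583528, plus strand).
Oas3: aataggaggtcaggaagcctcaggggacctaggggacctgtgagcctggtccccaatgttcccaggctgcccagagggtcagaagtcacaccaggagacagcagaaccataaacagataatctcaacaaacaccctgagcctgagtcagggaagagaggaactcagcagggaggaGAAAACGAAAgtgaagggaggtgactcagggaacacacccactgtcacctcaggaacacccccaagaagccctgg
Ifit3: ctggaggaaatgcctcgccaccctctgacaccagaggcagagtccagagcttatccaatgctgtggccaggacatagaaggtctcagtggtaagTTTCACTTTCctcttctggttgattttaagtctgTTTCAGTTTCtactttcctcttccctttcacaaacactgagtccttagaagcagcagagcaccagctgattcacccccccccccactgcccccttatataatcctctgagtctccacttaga
The C/EBP-like motif occurred in the flanks of 10 of 28 genes with a RefSeq promoter, out of 34 measured on the secondary and tertiary granule and the neutrophil surface lists (35.7%), and in 10.8% of 27025 genes. The interferon motif occurred in 12 of 23 genes, out of 32 measured on the interferon list (52.2%), and in 3.46% of all. It was present in 5 of the 10 interferon genes that rose and have a promoter here and in 7 of the 13 that were not called. The letters do not show that a factor was bound.

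Secondary and tertiary granule genes had the highest median change of the 42 gene lists examined. Of 14 measured, 12 rose and 0 fell, with a median change of 3.04, against -0.03 for all genes. The median change over this list was above 0 in 25 of 25 pairs and ranged from 1.29 to 6.11. Ngp was between 4.31 and 9.23 in controls (median 6.27) and between 9.21 and 13.46 in tumor-bearing mice (median 11.40). The groups touched only at their ends, and all 25 tumor-bearing mice were higher than their partners. Its change was 4.89 (SE 0.33), a 29.6-fold rise, with an adjusted p of 6.86e-11 by limma. Lcn2, which binds bacterial iron carriers, was between 4.03 and 11.36 in controls (median 4.93) and between 8.21 and 12.50 in tumor-bearing mice (median 10.17). The control at 11.36 was the one of pair 16, the next highest control was at 7.08, and without the 4 pairs the groups did not overlap. Its change was 4.83 (SE 0.39), 28.4-fold, with an adjusted p of 8.96e-10 by limma. Ltf, an iron-binding granule protein, was between 4.87 and 7.57 in controls (median 5.72) and between 7.68 and 12.73 in tumor-bearing mice (median 9.95), with no overlap. The rise was 19.9-fold (4.32, SE 0.34, adjusted p = 6.15e-10, limma).

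The collagenase gene Mmp8 was between 4.08 and 5.70 in controls (median 4.70) and between 6.43 and 11.02 in tumor-bearing mice (median 8.52). The groups did not overlap, and the rise was 13.9-fold (3.79, SE 0.27, adjusted p = 1.91e-10, limma). Camp, the precursor of the antimicrobial peptide cathelicidin, rose 13.7-fold, from a control median of 5.67 to 9.14. Cd177, a surface marker of the secondary granule membrane, rose 11.1-fold, from a median of 4.72 to 8.22. Camp and Cd177 were higher in 25 of 25 pairs. Adam8, a protease of the granule and cell surface, rose 4.85-fold (2.28, SE 0.16). Itgb2l and Orm1 were the members not called, with changes of -0.05 and -0.34. A probe set of Itgb2l that was not used changed by 0.32.

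Primary granule genes, which mark earlier marrow stages, were not called. Of 6 measured, 0 rose and 0 fell in the 25 pairs by limma, 0 had an unadjusted p under 0.05, and the median change was 0.02 (1 fell in the 21 pairs). Mpo, myeloperoxidase, lay between 3.50 and 4.78 in controls and between 3.50 and 4.68 in tumor-bearing mice, near the lower limit in both groups. The serine protease genes Elane, Prtn3 and Ctsg changed by -0.06, 0.12 and 0.07 (SE 0.09, 0.13 and 0.06). Cst7 changed by -0.11 (SE 0.12), and in the 21 pairs it fell by 0.29 (adjusted p = 0.0253, limma).

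**Figure D2:**
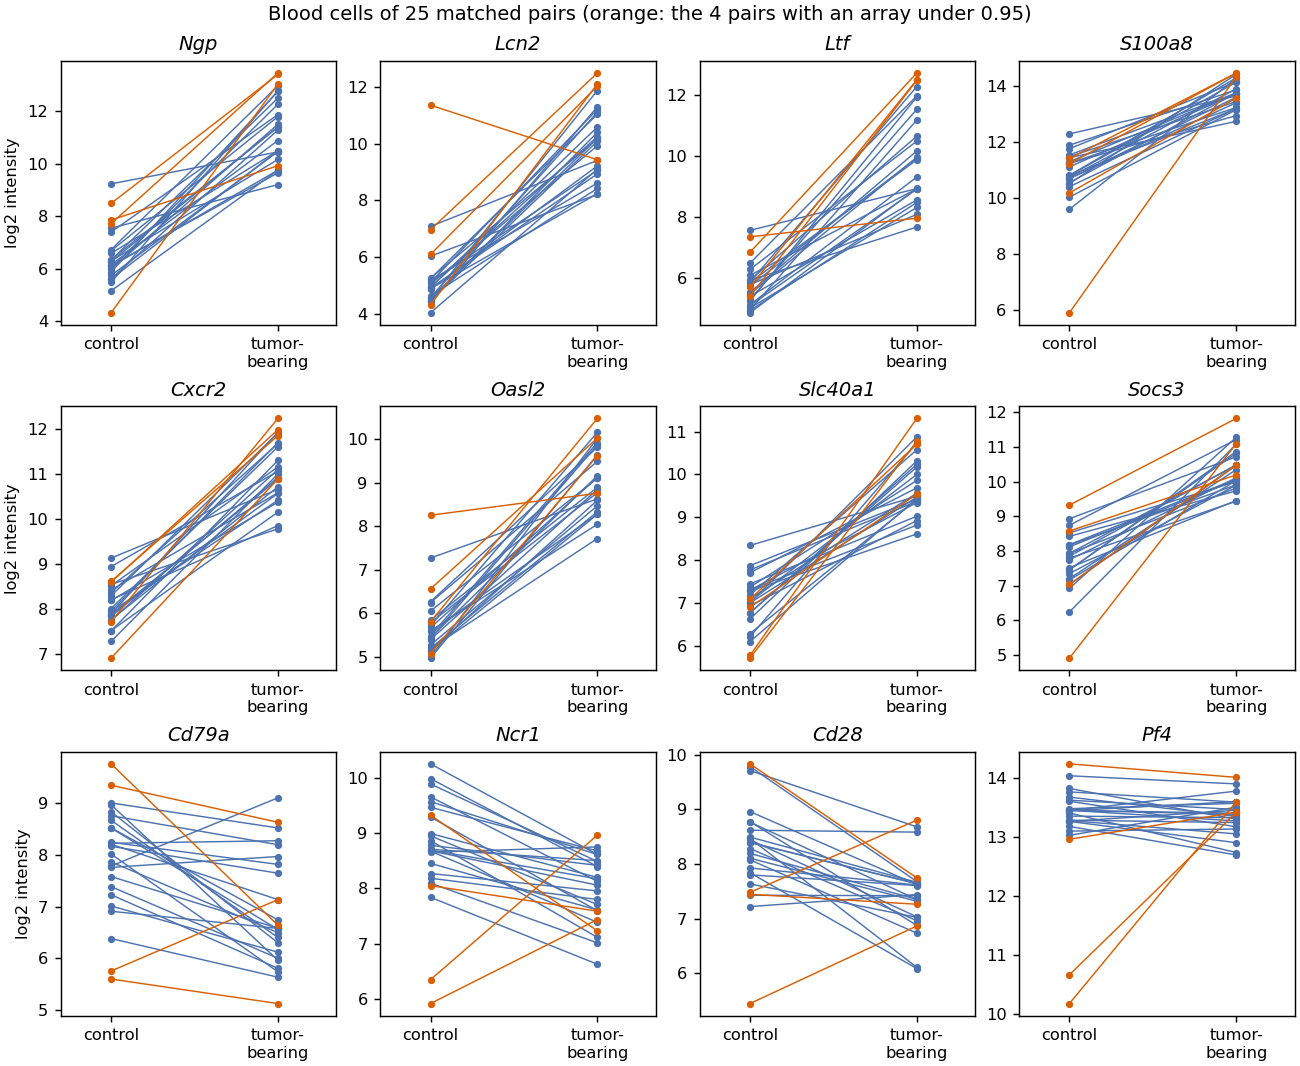
Level (log2 intensity) of 12 genes in the control and the tumor-bearing mouse of each of 25 pairs, a line joining the mice of a pair; orange marks the 4 pairs with an array under 0.95. Lines rise in 24 of 25 pairs for Lcn2 and in all 25 for the other genes of the first 8, fall in 21 or 22 of 25 for Cd79a, Ncr1 and Cd28, and Pf4 shows both directions.

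Genes of the mature neutrophil surface and cytosol rose as a group. Of 20 measured, 19 rose and 0 fell, and the exception was Padi4 (0.15). The median change was 2.01 and was above 0 in 25 of 25 pairs. S100a8, which forms calprotectin with S100a9, was between 5.90 and 12.28 in controls (median 10.80) and between 12.73 and 14.45 in tumor-bearing mice (median 13.73), with no overlap. The rise was 7.71-fold (2.95, SE 0.27, adjusted p = 7.83e-09, limma). S100a9 was between 7.23 and 12.05 in controls (median 10.67) and between 12.88 and 14.40 in tumor-bearing mice (median 13.69), again with no overlap, and rose 8.26-fold (3.05, SE 0.22). Cxcr2, the receptor by which neutrophils answer chemokines and leave the marrow, was between 6.90 and 9.13 in controls and between 9.78 and 12.24 in tumor-bearing mice. It rose 7.97-fold (2.99, SE 0.16, adjusted p = 1.25e-12, limma). The decoy receptor gene Il1r2 rose by 2.47 (SE 0.19) and the receptor gene Trem3 by 2.02 (SE 0.15), each in 25 of 25 pairs.

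Of the other genes among the 12 largest rises, Steap4, a metalloreductase, was between 4.41 and 6.33 in controls and between 8.06 and 11.74 in tumor-bearing mice, and rose 27.3-fold (4.77, SE 0.25). Ifitm1, an interferon-induced membrane protein, was between 7.43 and 10.08 in controls and between 11.10 and 14.03 in tumor-bearing mice, and rose 18.1-fold (4.18, SE 0.20). Stfa2l1, a stefin A protease inhibitor, rose 17.6-fold (4.13, SE 0.19) and did not overlap between the groups. Wfdc21 rose 18.4-fold (4.20, SE 0.33) and Dmxl2 11.3-fold (3.49, SE 0.22). Arg2, an arginase, was between 4.43 and 6.82 in controls and between 7.50 and 10.51 in tumor-bearing mice, and rose 12.2-fold (3.61, SE 0.19, adjusted p = 7.4e-13, limma). Of the other 18 genes measured on the myeloid suppression and checkpoint list, only Foxp3 was called, with a change of 0.16 between values of 3.92 and 4.82. Arg1, Nos2 and Cd274 were not called (-0.63, 0.08 and 0.06). Of the NADPH oxidase genes, which make the oxidative burst, 3 of 5 rose (Ncf4 1.37, Ncf1 0.93 and Rac2 0.89).

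Many genes of the signals that act on neutrophils rose as well. Of 17 genes of G-CSF, interleukin 6 and STAT3 signalling, 11 rose and 0 fell, with a median change of 0.84, and 1 fell in the 21 pairs. Socs3, the feedback inhibitor of these receptors, was between 4.91 and 9.33 in controls (median 7.79) and between 9.44 and 11.83 in tumor-bearing mice (median 10.35), without overlap. It rose 6.48-fold (2.70, SE 0.22, adjusted p = 1.58e-09, limma). Lrg1, a secreted protein stored in neutrophil granules, rose 10.6-fold (3.40, SE 0.33), from 5.65 to 10.08 in controls to 10.22 to 12.59 in tumor-bearing mice. Csf2rb, the shared receptor chain for interleukin 3, interleukin 5 and GM-CSF, rose 5.39-fold, and Il4ra 2.33-fold. Of 23 genes of the interleukin 1 family and Toll-like receptors, 16 rose and 1 fell (Il18r1, -0.40), and 5 did not overlap between the groups. Il1rap, the accessory chain of the interleukin 1 receptor, rose by 2.54 (SE 0.17), Myd88, the adaptor of these receptors, by 2.14 (SE 0.18), Tlr2 by 1.74 (SE 0.14) and Tlr6 by 1.45 (SE 0.12). Each was higher in 25 of 25 pairs. A probe set of Il1rap that was not used changed by 0.25. Cebpd, a transcription factor of late neutrophil maturation that also answers glucocorticoids, was between 4.66 and 7.56 in controls and between 8.62 and 11.06 in tumor-bearing mice, and rose 7.11-fold (2.83, SE 0.21). Of the other 12 glucocorticoid-responsive genes measured, only Sgk1 rose (0.95, SE 0.24). Of the chemokine and chemokine receptor genes, Ccr1 (2.41) and Ccl6 (1.11) rose and Ccr6 fell (-0.57), out of 19. These counts are near the shares over all genes (8.66% risen and 4.27% fallen), and the list's median change was -0.03.

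Fewer monocyte genes were called. Of 18 measured, 7 rose and 0 fell, with a median change of 0.40, and 0.18 in the 21 pairs. Csf1r, the receptor for macrophage colony-stimulating factor, was between 8.28 and 12.00 in controls and between 10.52 and 13.11 in tumor-bearing mice, with wide overlap. It rose by 0.79 (SE 0.23, adjusted p = 0.0192, limma). Cd14, the co-receptor for lipopolysaccharide, rose by 1.14 (SE 0.22), Treml4 by 0.81 (SE 0.13), Apobec1 by 0.75 (SE 0.16) and Cx3cr1 by 0.44 (SE 0.10). Itgax, listed with dendritic cells and also present on other myeloid cells, rose by 1.18 (SE 0.14), while 1 of the other 10 genes of that list was called, Ccr9, which fell by 0.47. Siglecf, listed with eosinophils, was at or near the lower limit in all controls (3.50 to 3.66), while the tumor-bearing mice started at 3.50 and had a median of 4.53. The fitted change was 1.31 (SE 0.19, adjusted p = 1.93e-05, limma). It is no exact size of the rise, since the control level is only bounded by the lower limit. None of the other 6 eosinophil genes was called by limma in the 25 pairs. Hdc, which makes histamine and is listed with basophils, was between 4.72 and 6.97 in controls and between 7.07 and 10.37 in tumor-bearing mice, and rose 6.53-fold (2.71, SE 0.20). Mcpt8, a basophil protease, changed by 0.36 (SE 0.11, adjusted p = 0.0345, limma), and in the 21 pairs by 0.25 (adjusted p = 0.0681, limma). Their neighbours on that list, 6 genes, were not called.

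Many lymphocyte genes fell. Of 18 B cell genes, 15 fell and 0 rose, with a median change of -0.96. The list's median change was below 0 in 22 of 25 pairs and ranged from -3.10 to 1.53. Cd79a, a signalling chain of the B cell receptor, was between 5.60 and 9.76 in controls (median 8.17) and between 5.13 and 9.10 in tumor-bearing mice (median 6.58). The groups overlapped over most of their range, and the tumor-bearing mouse was lower in 21 of 25 pairs (-1.01, SE 0.22, adjusted p = 0.00199, limma). Fcer2a, the low-affinity IgE receptor CD23, was between 4.77 and 8.77 in controls and between 4.22 and 6.33 in tumor-bearing mice, and was lower in 25 of 25 pairs (-1.22, SE 0.18, adjusted p = 2.45e-05, limma). Cr2, the complement receptor CD21, fell by 0.78 (SE 0.12), Cd22 by 0.94 (SE 0.18) and Cd72 by 0.47 (SE 0.08).

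Among the 12 largest falls, Ighv14-2, an immunoglobulin heavy chain variable segment, was between 5.48 and 9.53 in controls (median 7.39) and between 3.84 and 8.16 in tumor-bearing mice (median 4.94). It was lower in 24 of 25 pairs, 5.16-fold on average (-2.37, SE 0.25, adjusted p = 8.1e-08, limma). Such segments are near copies of each other, and which of them the probe set reads is uncertain. H2-Ob, a chain of the class II modulator of B cells, fell 3.26-fold (-1.71, SE 0.28). Fcmr, the receptor for immunoglobulin M, fell 2.69-fold and Bank1, a B cell adaptor, 2.35-fold. Cd69, an early activation marker, fell by 1.15 (SE 0.19). Iigp1, a GTPase induced by interferon gamma, fell 3.02-fold (-1.59, SE 0.37). Scd1, which desaturates fatty acids, fell 2.65-fold (-1.41, SE 0.25) and was lower in 24 of 25 pairs. Cnn3, Srpk3, P2ry10 and B3gnt5 fell by 1.34, 1.14, 1.11 and 1.11. With probe sets of the less specific kinds (names ending in _x_at or _s_at) left out, Srpk3 was read by another probe set, which changed by -0.22 (SE 0.12, adjusted p = 0.291, limma).

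Most NK and cytotoxic genes fell. Of 16 measured, 14 fell and 0 rose, with a median change of -0.66, below 0 in 21 of 25 pairs. Ncr1, the NK receptor NKp46, was between 5.91 and 10.26 in controls (median 8.71) and between 6.63 and 8.96 in tumor-bearing mice (median 8.06), and fell by 0.74 (SE 0.20, adjusted p = 0.0114, limma). In the 21 pairs it fell by 0.96 (SE 0.12). Tbx21, the transcription factor T-bet, fell by 0.90 (SE 0.18), Prf1, perforin, by 0.83 (SE 0.17), Klre1 by 0.57 (SE 0.12) and Klrg1 by 0.53 (SE 0.10). Of 20 T cell genes, 9 fell and 0 rose, with a median change of -0.34. Without the 4 pairs 16 fell, with a median of -0.51. The control of pair 9 had the lowest Ncr1 and the lowest Cd28 of all controls (5.91 and 5.45). Cd3e, a chain of the T cell receptor complex, was between 8.47 and 10.32 in controls and between 8.15 and 9.49 in tumor-bearing mice, and fell by 0.37 (SE 0.09, adjusted p = 0.00528, limma). Cd28, the main costimulatory receptor, fell by 0.82 (SE 0.19), Cd27 by 0.63 (SE 0.15) and Lef1 by 0.56 (SE 0.13). Of 9 class II genes, which present antigen, 4 fell and 0 rose, and 7 fell without the 4 pairs. H2-Oa fell by 0.49 (SE 0.13), H2-DMb2 by 0.56 (SE 0.16) and H2-Eb1 by 0.35 (SE 0.10).

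**Figure D3:**
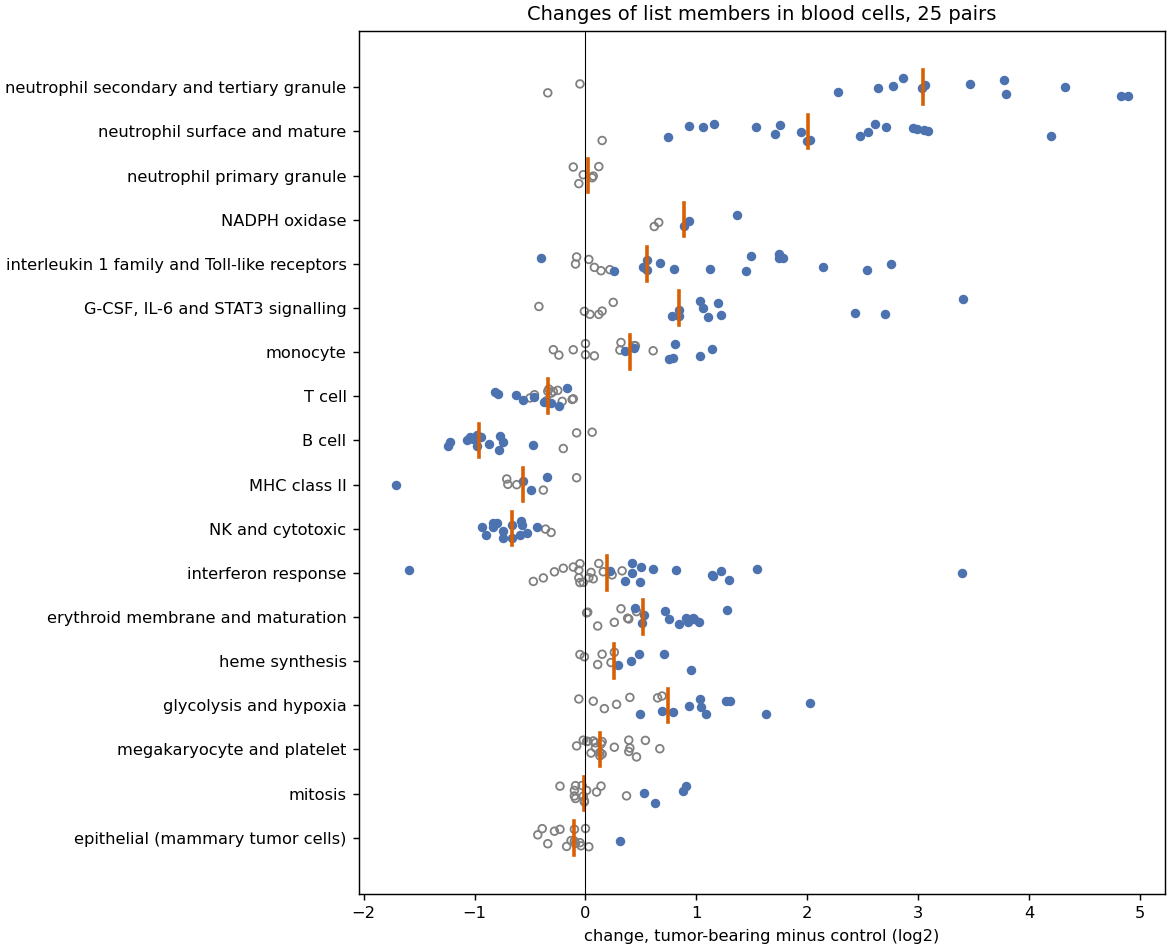
Change of each measured member of 18 gene lists (tumor-bearing minus control, log2, mean of 25 pairs). Filled points have an adjusted p under 0.05, open points do not, and the orange bar is the list's median, which is 3.04 for secondary and tertiary granule genes and -0.96 for B cell genes.

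Interferon-stimulated genes split. Of 32 measured, 14 rose and 1 fell (Iigp1), with a median change of 0.19. In the 21 pairs 15 rose and 4 fell, with a median of 0.12. Oasl2 was between 4.97 and 8.25 in controls (median 5.58) and between 7.71 and 10.47 in tumor-bearing mice (median 9.10). The control at 8.25 was that of pair 16, the next was at 7.27, and without the 4 pairs the groups did not overlap. Its rise was 10.4-fold (3.39, SE 0.20, adjusted p = 6.95e-12, limma). Rtp4 rose 2.92-fold, Trim30a 2.45-fold and Oas3 2.33-fold. A probe set of Rtp4 that was not used changed by 0.05. Ifit3, Mx1 and Ifit1, which are induced by type I interferon, were not called, with changes of -0.11, -0.02 and 0.33. Of the genes with a printed flank, Oas3 has 1 match of the interferon motif and rose, and Ifit3 has 2 matches and was not called. The flank of Oasl2 has 0 matches.

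Part of the red cell genes rose. Of 20 genes of the red cell membrane and maturation, 12 rose and 0 fell, with a median change of 0.52, above 0 in 21 of 25 pairs. Epb42, a protein of the red cell skeleton, was between 4.22 and 7.42 in controls and between 5.83 and 9.10 in tumor-bearing mice, and rose 2.43-fold (1.28, SE 0.21, adjusted p = 5.66e-05, limma). Tmod1 rose by 1.02 (SE 0.18), Car2, a carbonic anhydrase, by 0.91 (SE 0.18) and Dmtn by 0.72 (SE 0.14). A probe set of Dmtn that was not used changed by -0.09, and with quantile normalization Dmtn and Cpox were not called (adjusted p = 0.159 and 0.0712, limma). Of 11 heme synthesis genes, 5 rose and 0 fell, with Urod at 0.95 (SE 0.15), Tmem14c at 0.71 (SE 0.11), Cpox at 0.48 (SE 0.10) and Ppox at 0.41 (SE 0.09). Alas2 changed by 0.11 (SE 0.09, adjusted p = 0.498, limma). Of 15 erythroid regulators, 4 rose and 1 fell, and in the 21 pairs 7 rose and 3 fell. Foxo3 rose by 0.48 and the transferrin receptor gene Tfrc by 0.93, and Gfi1b, a repressor shared with platelet precursors, fell by 0.34. With quantile normalization Tfrc and Nfe2 were not called (adjusted p = 0.0547 and 0.0842, limma). Of 6 measured globin genes, 1 was called, Hba-a2, at 0.29 (adjusted p = 0.0493, limma), and 0.22 in the 21 pairs (adjusted p = 0.0851, limma).

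Iron and heme handling genes included some of the clearest rises. Slc40a1, ferroportin, the only known cellular exporter of iron, was between 5.71 and 8.34 in controls (median 7.03) and between 8.61 and 11.30 in tumor-bearing mice (median 9.56), without overlap. It rose 7.12-fold (2.83, SE 0.23, adjusted p = 8.96e-10, limma). Slc11a1, a metal transporter of phagocyte vesicles, rose by 1.53 (SE 0.21), and Hmox1, which breaks down heme, by 0.70 (SE 0.09) in 25 of 25 pairs. Of 16 measured, 6 rose and 0 fell, with a median of 0.17, and in the 21 pairs 5 rose and 2 fell, with a median of 0.08.

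Of 18 genes of glycolysis and the hypoxia response, 11 rose and 0 fell, with a median change of 0.74, and in the 21 pairs 13 rose and 1 fell, with a median of 0.49. Slc2a1, the glucose transporter Glut1, rose 4.06-fold (2.02, SE 0.21), from a control range of 5.79 to 8.92 to a tumor-bearing range of 8.43 to 10.69, and in all 25 pairs. Pfkfb4 rose by 1.63 (SE 0.17), Egln3 by 1.30 (SE 0.17) and Hk2 by 1.03 (SE 0.14). Of 17 genes of endoplasmic reticulum stress and the amino acid response, 4 rose and 0 fell, Asns (1.45), Sesn2 (0.84), Chac1 (0.66) and Ddit3 (0.54), and the list's median was -0.02. In the 21 pairs 1 gene of that list fell. Of 19 respiratory chain genes 5 rose, with a median of 0.18, Ndufs1 at 0.50 and Ndufa1 at 0.45 among them, and in the 21 pairs 7 rose and 1 fell. Of 23 immediate early genes 6 rose and 2 fell. Ier3 rose by 1.64, Ier5 by 1.28 and Zfp36, which destabilises cytokine messages, by 1.23, while Cd69 and Dusp2 fell. Of 15 clock genes 4 rose and 2 fell (3 fell in the 21 pairs), led by Nfil3 (1.78, SE 0.16), with Cry1 at 0.40, Per2 at 0.24 and Arntl at -0.28.

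Of 20 platelet genes, 0 rose and 0 fell by limma in the 25 pairs, and 1 had an unadjusted p under 0.05 (4280 of 18193 over all genes). The median was 0.14 in all pairs and -0.16 in the 21 pairs, where 3 fell. Over all genes, 11.9% fell and 10.2% rose in the 21 pairs. The 21-pair counts of this and the other lists are to be read beside those shares. Ppbp changed by 0.15 (SE 0.19) and Thbs1 by 0.67 (SE 0.25, adjusted p = 0.0882, limma). Of 14 ribosomal protein genes, 0 were called by limma and 1 had an unadjusted p under 0.05 (median -0.01), and 3 fell in the 21 pairs. Of 17 mitosis genes, 4 rose (Ccnb2 0.91, Ccna2 0.88, Mki67 0.63 and Nusap1 0.53), with a list median of -0.01. With quantile normalization Mki67 and Nusap1 were not called (adjusted p = 0.175 and 0.317, limma), and without the block Nusap1 was not (adjusted p = 0.0589). Of 16 DNA replication genes, Rrm2 (-0.55) and Ccne1 (-0.24) fell and 0 rose, and 4 fell in the 21 pairs. With the same less specific probe sets left out, other probe sets of Rrm2 and Ccne1 changed by -0.02 and -0.01 (adjusted p = 0.902 and 0.962, limma). Of 13 progenitor genes only Sox4 was called, with a change of -0.60, and in the 21 pairs 1 rose and 2 fell. The Sox4 probe set that was brightest in blood changed by 0.06, and the call of Sox4 ended without the pairs as a block (adjusted p = 0.0651) and with quantile normalization (adjusted p = 0.0572, limma). Of 10 heat shock genes only Hspd1 was called (-0.54), and 5 fell in the 21 pairs. Of 9 plasma cell genes only Xbp1 was called, with a rise of 0.92. Among all named genes, 7 lost their call with a single pair left out, whichever of several pairs it was. The removal of 1 pair ended the call of Hspd1 for 20 of the 25 pairs, of Ccne1 and Hba-a2 for 19 each, of Sox4 for 13, of Ccr9 for 12, of Foxp3 for 11 and of Mcpt8 for 8, with adjusted p up to 0.0892 (limma).

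**Figure D4:**
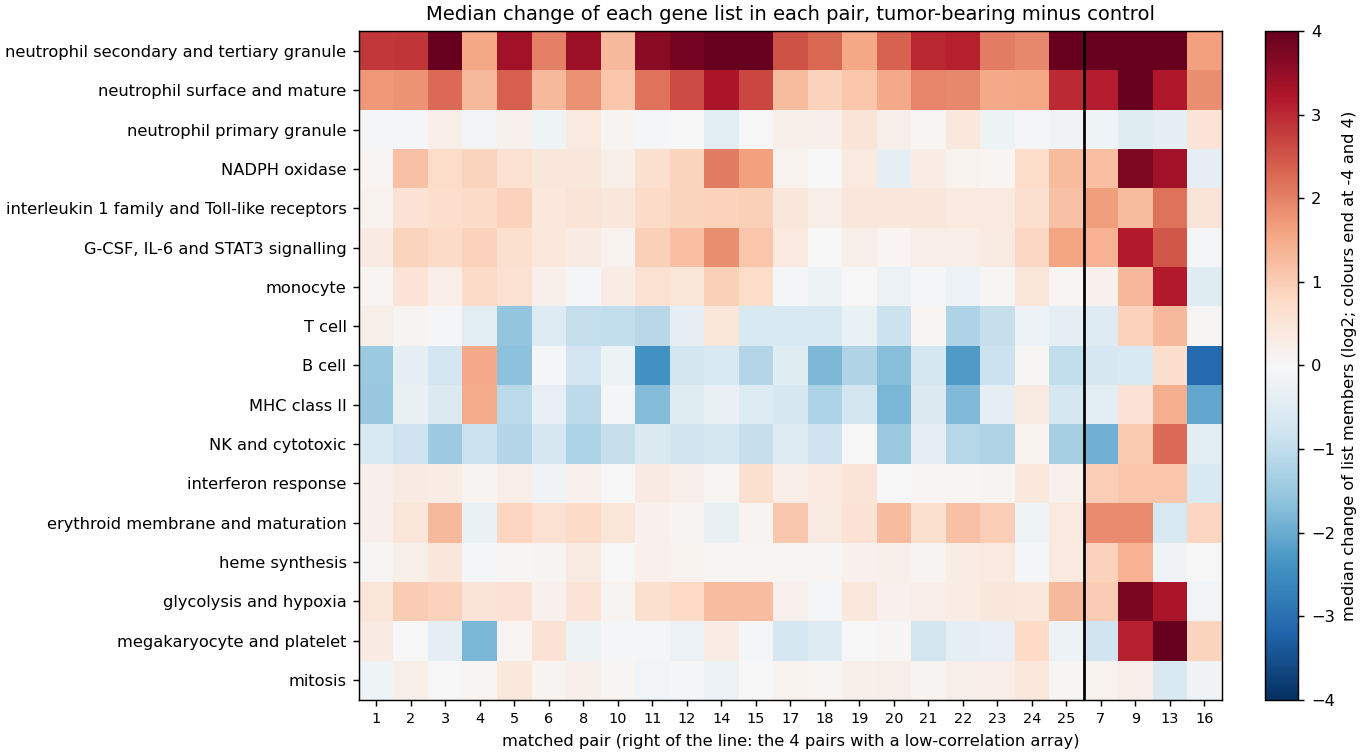
Median change of the members of 17 gene lists (rows) in each of the 25 pairs (columns), as log2 of tumor-bearing over control, with the 4 low-correlation pairs at the right. The rows of secondary and tertiary granule genes and of surface genes are above 0 in all 25 pairs, and the platelet row ranges from -1.82 to 5.03, with its highest values in pairs 9 and 13.

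Genes of tissues that could be carried over with blood were checked as lists. Of 15 epithelial genes, Krt7 was called (0.31, SE 0.06), between 4.02 and 4.99 over all arrays. The summed intensity of these genes was between 8.12 and 8.91 on the log2 scale in tumor-bearing mice and had a median of 8.63 in controls, with 1 control at 14.34. Of 7 hepatocyte genes 0 were called by limma, and 0 had an unadjusted p under 0.05. Alb, albumin, ranged from 4.72 to 13.66 in controls and from 4.71 to 13.03 in tumor-bearing mice, and changed by -0.86 (SE 0.77, adjusted p = 0.569, limma). Of 10 muscle, 5 adipocyte and 8 endothelial genes 0 were called by limma in the 25 pairs, and 1, 0 and 1 had an unadjusted p under 0.05. In the 21 pairs 1 muscle gene rose, and of the endothelial genes 1 rose and 1 fell, against 10.2% risen and 11.9% fallen over all genes. Of 10 ErbB receptor and ligand genes 0 were called by limma and 2 had an unadjusted p under 0.05. The lowest p was that of Egfr (-0.23, SE 0.09, adjusted p = 0.127, limma). A probe set of Egfr that was not used changed by 0.22. Over all genes, 4280 of 18193 had an unadjusted p under 0.05 in the 25 pairs. Genes of resident macrophages, a list added after the arrays had been seen, had summed levels between 8.83 and 14.04 in controls and between 8.28 and 14.03 in tumor-bearing mice, with a median change of -0.72. Of 10, only Timd4 was called, at -0.81 (SE 0.25, adjusted p = 0.0291, limma), and in the 21 pairs its adjusted p was 0.0548. An unadjusted p under 0.05 was reached by 9 of the 10 in the 25 pairs, and by 3 in the 21 pairs. In the 15 later pairs described next, 8 of the 10 fell. The part of carried-over tissue in the other results was not tested.

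The sample IDs fall into an earlier range of 10 pairs and a later range of 15. The 10 earlier pairs gave 303 rises and 14 falls, and the 15 later pairs 1119 rises and 1002 falls. All 1575 risen genes had a change above 0 in both ranges. Of the 776 fallen genes, 774 were below 0 in the earlier pairs and 776 in the later ones. These genes were called in the fit of all 25 pairs, which holds the pairs of both ranges. That choice favours the same sign in each range, so the sign counts are no independent check of one range by the other. A test of the difference between the ranges, added after the data had been seen, called 0 genes by limma, with 463 genes (2.54%) at an unadjusted p under 0.05. The secondary and tertiary granule list had medians of 2.68 and 3.32 in the earlier and later pairs, and the B cell list -0.58 and -1.12. In the 10 earlier pairs 0 of the 18 B cell genes were called by limma, and 4 had an unadjusted p under 0.05. Over all genes, 1819 of 18193 had such a p in the earlier pairs.

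The changes in blood were set against those of spleen, an organ that makes blood cells in mice under stress, and of liver. The labels do not settle which blood and spleen arrays came from the same mouse, so tissues were treated as independent, and values were compared only as changes. The change differed between blood and spleen in 3891 genes (21.4%), of which 1805 were more positive and 2086 more negative in blood. It differed between blood and liver in 2191 genes (12.0%). Both counts were larger in the pairs without low-correlation arrays, at 6668 and 5096 genes.

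**Figure D5:**
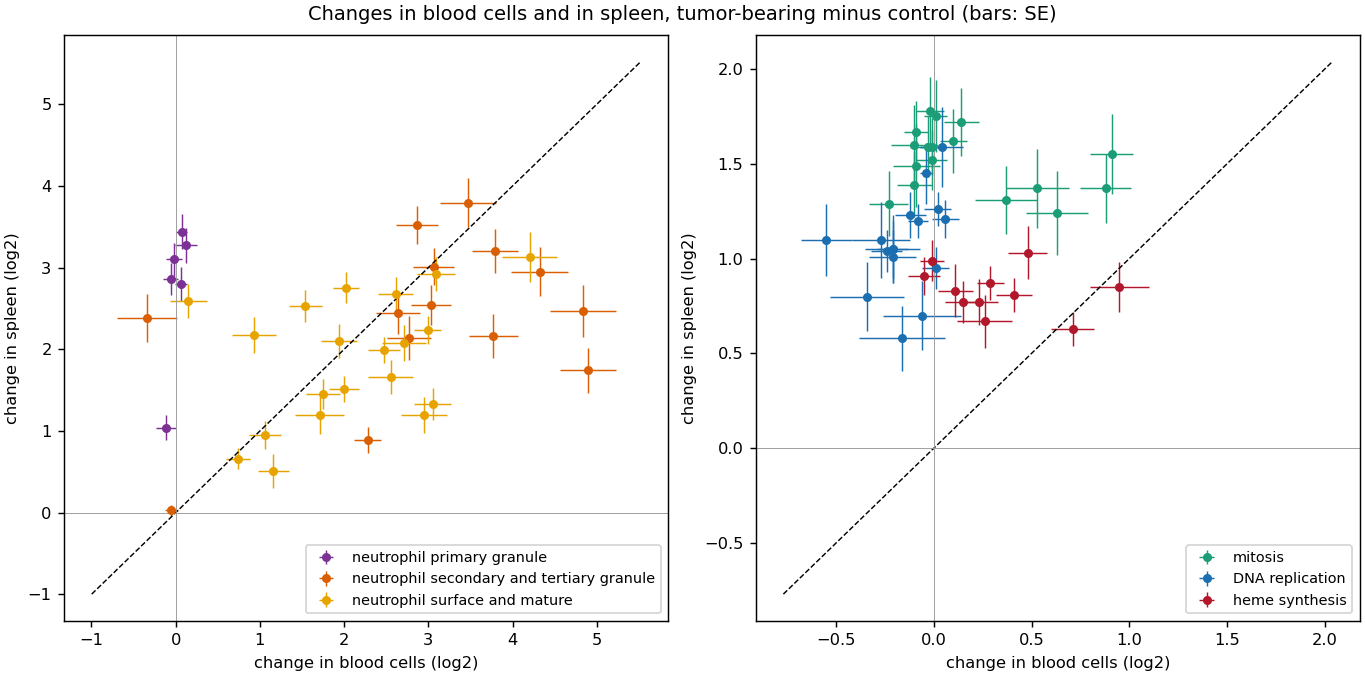
Change in spleen against change in blood cells (tumor-bearing minus control, log2, each with its SE) for 3 neutrophil lists (left) and for mitosis, DNA replication and heme synthesis genes (right); the dashed line marks equal change. The medians of the primary granule, mitosis and DNA replication lists are 0.02, -0.01 and -0.14 in blood and 2.98, 1.55 and 1.07 in spleen.

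Of the 12 genes with the largest rises in blood, 7 rose more in blood than in spleen and 0 less. These genes were picked by their change in blood, which tilts the comparison towards blood. On the neutrophil surface list, 4 of 20 genes were more positive in blood and 4 more negative, with medians of 2.01 in blood and 2.04 in spleen. On the secondary and tertiary granule list, 5 of 14 were more positive in blood and 1 more negative, with medians of 3.04 and 2.46. Ngp changed by 4.89 in blood and by 1.74 (SE 0.28) in spleen, a difference of 3.15 (SE 0.40, adjusted p = 1.79e-08, limma interaction). Ifitm1 changed by 4.18 and 1.45, with an adjusted p of 3.25e-13 for the difference. Stfa2l1, Mmp8 and Cd177 changed by 3.83, 3.20 and 3.79 in spleen, and the differences did not pass the threshold (adjusted p = 0.509, 0.299 and 0.675, limma interaction). Slc40a1 rose by 2.83 in blood and changed by -0.30 in spleen (adjusted p = 3.48e-14 for the difference). Slc2a1 changed by 2.02 in blood and -0.51 in spleen (adjusted p = 6.09e-13).

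The primary granule list showed the reverse. All 6 measured genes changed more in spleen than in blood, with list medians of 2.98 in spleen and 0.02 in blood. Ctsg changed by 3.44 (SE 0.21) in spleen and 0.07 in blood, with an adjusted p of 1.52e-12 for the difference by the limma interaction. In blood Ctsg, like Mpo, was near the lower limit of 3.50, with the lowest control at 3.70 and the second highest at 4.54. The blood changes of these genes are therefore no exact sizes. Of 16 DNA replication genes all 16 changed less in blood than in spleen, with medians of -0.14 and 1.07. Of 17 mitosis genes 14 did, with medians of -0.01 and 1.55. Of 11 heme synthesis genes 8 did, with medians of 0.26 and 0.83. Gfi1b fell by 0.34 in blood and changed by 1.04 in spleen (adjusted p = 3.7e-07 for the difference). For T cell genes, 0 of 20 differed between blood and spleen by the limma interaction, and 0 had an unadjusted p under 0.05.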

How the data were processed

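The deposited values are probe set intensity values of Affymetrix Mouse Genome 430 2.0 arrays on a linear scale, as the authors deposited them. How they were summarised and whether and how they were normalized is not given in the sources used here. RNA was extracted with Trizol and labelled with biotin, per the labels' protocols. Of 45101 probe sets, 34945 had 1 gene symbol, 932 several and 9224 none. Where a gene had several probe sets, the one brightest on average across the series was used, which left 18193 genes. Other probe sets of some named genes changed far less, down to 0.08 for Prf1, 0.00 for Il4ra, -0.13 for B3gnt5, -0.02 for Cnn3 and 0.56 for Cebpd. The same held for Il1rap (down to 0.25), Ier5 (0.40) and Egln3 (0.47). For others the change was similar, such as 2.89 for Slc40a1, 2.32 for Csf2rb and 1.04 for Urod. Values under the 5th percentile (11.3) were raised to it (14.2% of blood values), and log2 was taken. Pairs come from the labels, which match mice by age and cage. Deviations from the group mean had a median correlation of 0.22 within pairs and -0.02 between other mice, over 0.1 in 15 of 25 pairs. limma 3.58.1 (R 4.3.3) fitted group and pair; blood against another tissue was fitted as an interaction. Ratios of 3′ to 5′ probe sets were tested with 100000 sign flips. On simulated data with 200 changed genes of 18193 (12 sets), 59.3% of log2 changes of 0.5 and 94.8% of 1 were recovered, and 6.53% of calls were false. The simulated errors were independent between genes, and the changed genes were drawn from those at or above the median level. These rates therefore do not cover arrays that deviate as a whole, or dim genes. The number of arrays limits the precision.

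Genes were named by a rule: Erbb2; the 12 largest rises and falls among called genes that moved that way in at least 20 of 25 pairs; up to 4 called members of each of 42 lists with the smallest p, or the member with the smallest p and the most intense one where none was called; and defining markers. Other genes were chosen after their values were seen. The members and lists were chosen with earlier results of these data known. RefSeq promoters were searched for motifs on both strands.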

Additional observations from a re-analysis of the deposited data

Results flagged for a closer look

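The change differed between blood and spleen in 3891 genes and between blood and liver in 2191 genes (limma interaction, adjusted p under 0.05). Among the genes with the largest changes in blood, the difference of blood minus spleen was 3.15 for Ngp, 2.36 for Lcn2, 2.28 for Steap4, 1.36 for Ltf, 2.73 for Ifitm1, 1.62 for Camp and 2.39 for Dmxl2 on the log2 scale. The falls of Ighv14-2, H2-Ob and Cnn3 were deeper in blood, with differences of -1.70, -1.24 and -1.06. All of these genes were picked by their change in blood, which tilts the differences towards blood. The primary granule genes had differences of -2.73 (Mpo), -2.92 (Elane), -3.16 (Prtn3), -3.37 (Ctsg), -3.12 (Ms4a3) and -1.15 (Cst7). Mpo and Ctsg were near the lower limit in blood.

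Probe sets with no gene symbol or several symbols, which the comparisons of genes do not use, also changed in blood. Of 10092 tested, 350 rose and 291 fell (limma, adjusted p under 0.05). This test was added after the data had been seen.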

How the results depend on the processing

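The number of arrays and 5 blood arrays of low correlation limit these results. The count of falls moved the most: 776 over all pairs, 2174 without the 4 low-correlation pairs, 1170 with quantile normalization and 2980 with array weights. With the earlier range of sample IDs alone, 303 genes rose and 14 fell. Leaving out 1 pair at a time gave 1444 to 1673 rises and 611 to 1453 falls, the most falls without pair 13; without pair 16, whose control held epithelial RNA, 1673 genes rose. Without the replicate block (the pairing by matched mouse), 1510 rose and 607 fell. The genes whose change differed between blood and spleen numbered 3891, against 6668 without low-correlation pairs and 2385 among bright genes. Between blood and liver they numbered 2191, against 5096 and 1409. The bright genes, those at or above the median blood level, were 9097, against 18193 genes tested in the main fit. The lower counts among bright genes therefore do not show a smaller share. The actin ratio moved from -0.08 to -0.05 (two-sided permutation p = 0.222) in the 21 pairs. Sox4 turned from -0.60 to 0.06 with another probe set. No other named gene called in either fit turned direction in these or the other settings tried. Without the block, Mcpt8, Hba-a2, Sox4, Nusap1, Ccne1, Hspd1 and Ndufb8 lost their call, and with quantile normalization Hba-a2, Cpox, Dmtn, Tfrc, Nfe2, Sox4, Mki67, Nusap1, Ccne1, Uqcrc2 and Ndufb8 did. With the earlier pairs alone 79 of 143 named genes lost it, and with the later pairs 22. The cause of these shifts was not tested.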
